A study of Mus musculus with 2 samples.

Results

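The general capillary endothelium of mouse lung adenocarcinoma was examined in 178 cells of the CD45-negative library. These were 178 of the 1249 cells (14.3%, 95% interval 12.4 to 16.3%) that the authors' deposited annotation places in the Endothelial class of that library, which holds 3957 of the 15389 cells of the series. The members were chosen by their counts of unique molecular identifiers (UMI, the number of captured transcript molecules) of 12 genes. A member had at least 2 UMI of Gpihbp1 and at most 1 UMI of Car4. The summed UMI of the mural genes Pdgfrb, Cox4i2, Postn and Higd1b were at most 2, those of the fibroblast genes Inmt, Pdgfra and Tcf21 at most 3, and those of the large vessel genes Vwf, Slc6a2 and Cytl1 at most 2. The levels of these 12 genes are therefore a description of the choice and support nothing.

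The study profiled dissociated lung tumours of C57BL/6 mice by droplet 3' single-cell RNA sequencing. Tumours had been microdissected, and the cells had been parted by magnetic beads into CD45-negative cells (3957 cells) and CD45-positive cells (11432 cells), with 1 library each. CD45 is the surface phosphatase that marks leukocytes. Both libraries share the strain and the kind of tumour, the cell names carry the term LucOS, and the sources used here give neither the meaning of that term nor the genotype, treatment, age or number of the mice or the stage of the tumours. No healthy lung was among the samples, so nothing here compares tumour with normal vessels. With 1 library per group there is no replicate, and no test between conditions was possible. Every interval below is a 95% interval that covers counting error only.

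General capillary cells are one of the kinds of endothelial cell that line the capillaries of the alveolus, and they act as the progenitors in that bed. They carry GPIHBP1, the protein that takes lipoprotein lipase to the luminal face of the capillary, and receptors for apelin and stem cell factor. The other kind, the Car4-rich aerocyte, is a large thin cell that covers the gas exchange surface and depends on VEGF signalling from the epithelium. PLVAP forms the diaphragms of caveolae and fenestrae, PTPRB (VE-PTP) is the phosphatase that holds the angiopoietin receptor TIE2 and VE-cadherin in check, and CD93 is a surface glycoprotein of endothelial adhesion and sprouting.

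The members held 1165200 UMI in all, from 4646 to 14467 UMI per cell with a median of 5735.5, against a median of 6808 in the whole Endothelial class, and a median of 2368 genes per cell. The mitochondrial share of their UMI had a median of 3.42%. No doublet calls were made and all deposited cells were kept. The libraries shared 57 cell barcodes, among them 4 of members. Transcripts of other cell types were found throughout. Sftpc, the surfactant gene of alveolar type 2 (AT2) cells, had at least 6 UMI in all 178 members. It was at 3162.5 CPM (UMI of a gene per 1000000 UMI of the set) against 121710 CPM in the AT2 class, and 177 of 178 members had a haemoglobin UMI. Whether these UMI came from free RNA, that is RNA outside the cells, or from doublets was not tested. Gpihbp1 itself had at least 2 UMI in 218 of the 1677 AT2 cells (13.0%, median depth 8143 UMI), compared with 1118 of 1249 endothelial cells (89.5%). After thinning each cell to 2000 UMI, at least 2 UMI remained in 2.98% of AT2 cells and 65.3% of endothelial cells. Transcripts of both sexes were found among the members, with Xist UMI in 58 cells, UMI of Y-linked genes in 62, both in 6 and neither in 64.

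Gpihbp1 alone did not set the members apart. Of the 1118 endothelial cells with at least 2 Gpihbp1 UMI, 701 failed the limit on Car4, 371 that on mural genes, 271 that on large vessel genes and 159 that on fibroblast genes, and many cells failed several. The Car4 limit alone removed 339 cells, almost as many as the mural limit in all. Cells with both Gpihbp1 and Car4 but none of the other exclusions were thus more common (27.1% of the class) than the members. Only 50 cells (4.0%) had at least 2 Car4 UMI with at most 1 Gpihbp1 UMI, and these are called Car4 cells below. The 131 cells that passed the mural, fibroblast and Car4 limits but had at least 3 UMI of Vwf, Slc6a2 and Cytl1 summed are called large vessel cells (10.5% of the class).

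**Figure D1:**
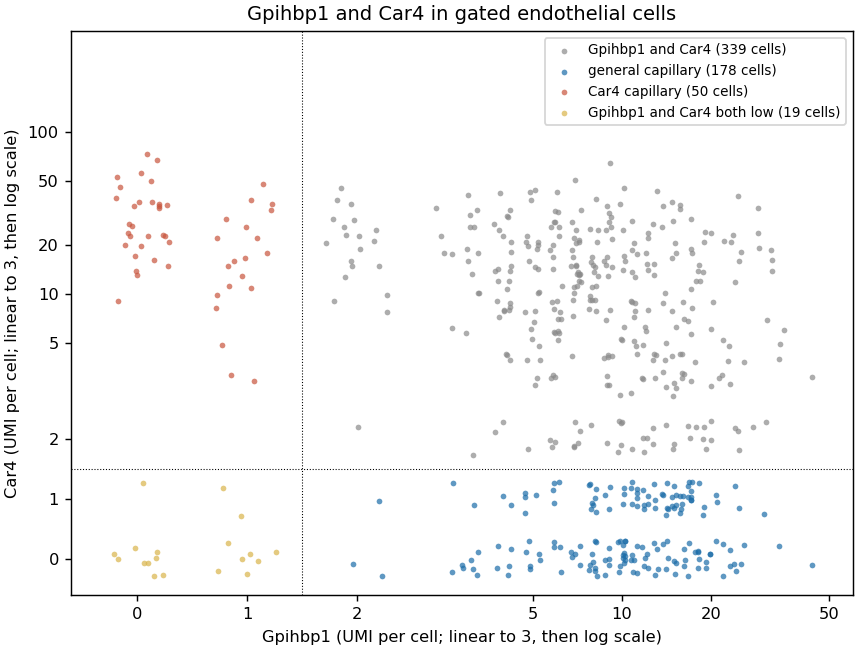
Gpihbp1 UMI (x axis) against Car4 UMI (y axis) per cell for the endothelial cells of the CD45-negative library that passed the mural, fibroblast and large vessel limits, coloured by set; each point is 1 cell. The 178 members lie at 0 or 1 Car4 UMI and 2 to 44 Gpihbp1 UMI, and the 339 cells with both genes run on from them without a gap.

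The limits met the cells differently. Of the cells that passed the other limits, 10 had 0 and 9 had 1 Gpihbp1 UMI just outside the rule, while 3 had 2 and 9 had 3 UMI just inside it. Few members therefore lay near the Gpihbp1 limit, and the markers dropped across it: the 12 cells with 2 or 3 Gpihbp1 UMI had 1123 CPM of Plvap, 764 of Ptprb and 809 of Cd93, and the 19 cells with 0 or 1 had 422, 244 and 237 CPM. The Car4 limit cut through a crowded range, with 103 members at 0 and 75 at 1 Car4 UMI and 42 cells just outside at 2 UMI. Cells with 1 and with 2 Car4 UMI had nearly the same Plvap (1257 and 1285 CPM), while Kdr was at 210 and 269 CPM and Ednrb, an aerocyte gene, at 12 and 29.9 CPM. No test was made of these values.

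The label was set beside the markers Gpihbp1, Plvap, Ptprb and Cd93, of which the last 3 were not used by the rule. These markers too were chosen with earlier results of these data known, so their levels are a description and no check of the label. Gpihbp1 (chromosome 15, 75596628 to 75599481, plus strand, GRCm38) had 2 to 44 UMI per member with a median of 11, and a level of 1821 CPM over all members. Plvap (chromosome 8, 71497765 to 71511752, minus strand) reached 1278 CPM (1214 to 1344) in the members, 157 in Car4 cells, 1129.8 in large vessel cells and 59.4 in the AT2 class. It had 0 to 23 UMI per member with a median of 8, and 2 of 178 members had none. Ptprb (chromosome 10, 116275523 to 116389535, plus strand) was at 1072 CPM in the members, 174 in Car4 cells, 1372 in large vessel cells and 92.4 in the AT2 class, and 7 members had no UMI. Cd93 (chromosome 2, 148436640 to 148443563, minus strand) stood at 1245 CPM in the members, 208 in Car4 cells, 1046 in large vessel cells and 47.0 in the AT2 class, with 6 members at 0.

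All 3 of these markers were found together in 164 of 178 members (92.1%), and no member lacked all 3. Among the 50 Car4 cells the same counts were 6 and 20. Car4 cells had been chosen by at most 1 Gpihbp1 UMI, so they are a narrow comparator. The log2 ratios of Plvap, Ptprb and Cd93 to them were 3.03, 2.62 and 2.58, and to the 408 other gated endothelial cells, most of which carry Gpihbp1, they were 0.80, 0.39 and 0.45. With the rule applied after thinning, those of Ptprb and Cd93 to Car4 cells were 0.76 and 0.72. The 3 markers were thus far higher than in Car4 cells as chosen here and less so under these other choices. They did not part the members from large vessel cells, of which 123 of 131 carried all 3. Compared with large vessel cells the members had 1.13 times the Plvap (1.05 to 1.22), 0.781 times the Ptprb (0.723 to 0.845) and 1.19 times the Cd93 (1.10 to 1.29). What parted the members from large vessel cells was the low Vwf, Slc6a2 and Cytl1 by which both sets were chosen, and the venous and capillary genes described further on.

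Pericyte, smooth muscle, fibroblast and leukocyte genes were low in the members, from which the rule had already removed cells with mural and fibroblast UMI. Over the 6 pericyte markers that the rule did not use, the summed level was 26.6 CPM with a median cell at 0, and 5 smooth muscle markers summed to 33.5 CPM, with Cnn1 at 0. The 5 fibroblast markers outside the rule summed to 47.2 CPM. The 7 leukocyte markers summed to 91.8 CPM, and Ptprc (the gene of CD45) was seen in 1 of 178 members. The 12 pan-endothelial markers (among them Pecam1, Cdh5 and Cldn5) summed to 14688 CPM, from 573 to 26143 CPM per cell. AT2 markers summed to 4397 CPM, erythroid markers to 3636 CPM and the AT1 markers to 511 CPM, with the highest single cell at 181150 CPM for the erythroid list and at 16602 CPM for the AT2 list.

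**Figure D2:**
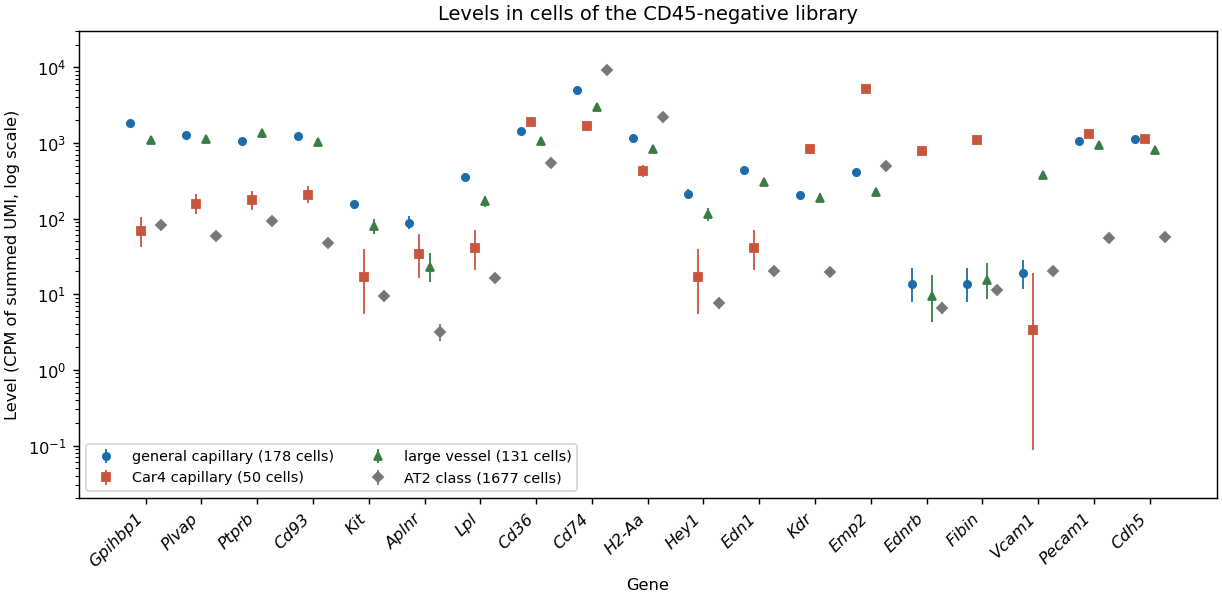
Level in CPM (log axis) of 19 genes in the members, the Car4 cells, the large vessel cells and the AT2 class (1677 cells) of the CD45-negative library; bars give exact Poisson 95% intervals. Plvap, Ptprb and Cd93 lie near or above 1000 CPM in the members and in large vessel cells, and between 157 and 208 CPM in Car4 cells.

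The members were then compared with Car4 cells of the same library, gene by gene, as ratios of CPM. A gene entered when it had at least 100 UMI over both sets (2599 genes) and was counted as higher or lower from a 2-fold difference. By this size rule 273 genes (10.5%) were higher and 149 genes (5.73%) lower in the members, with a median log2 ratio over all genes of 0.05. Among the 16 general capillary genes beyond the 4 markers, 14 entered, 8 were higher (Aplnr, Kit, Hmcn1, Adgrl3, Lpl, Cxcl12, Tek and Itga1), 1 was lower (Ly6c1), and the median log2 ratio was 1.54. Of the 15 aerocyte markers, 14 entered and all 14 were lower, with a median of -2.90. Car4 was part of the rule, and these lists were chosen with results of these cells known, so their directions are a description.

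Receptors and enzymes of the general capillary cell were among the higher genes. Kit, the receptor of stem cell factor, was at 154 CPM in the members and 17.1 in Car4 cells, a ratio of 9.06 (3.81 to 28.2), and 102 of 178 members had a UMI, compared with 3 of 50 Car4 cells. Its ligand Kitl went the other way, with 145 CPM in the members and 505 in Car4 cells, 3.48-fold lower (2.77 to 4.37). Lpl, the lipoprotein lipase that GPIHBP1 carries, was at 360 and 40.9 CPM, a ratio of 8.81 (4.99 to 17.2). The sizes depended on the cells compared: the log2 ratio of Kit was 3.18, and 0.65 with the rule applied after thinning or 0.52 against all other gated cells, and that of Lpl was 3.14, 0.86 and 0.51. Tek, which encodes TIE2, was at 279 and 58.0 CPM (4.81-fold, 2.96 to 8.36), so both the receptor and its phosphatase Ptprb were higher in the members. Cxcl12, the chemokine ligand of CXCR4, was at 493 and 102 CPM (4.81-fold, 3.33 to 7.2), and its scavenger receptor Ackr3 at 130 and 34.1 CPM (3.80-fold, 2.01 to 8.08). The Ly6-family gene Ly6c1 was the exception, at 2564 CPM in the members and 5728 in Car4 cells, 2.23-fold lower (2.10 to 2.37).

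Ligands and receptors of the apelin and VEGF systems were split between the members and the Car4 cells as chosen here. Aplnr, the apelin receptor (chromosome 2, 85136225 to 85139923, plus strand), was at 88.4 CPM in the members and 34.1 in Car4 cells, with a ratio of 2.59 (1.35 to 5.56), and had a UMI in 54 of 178 members. Of the 10 Aplnr UMI in Car4 cells 7 came from 1 cell, and with Gpihbp1 of at least 1 UMI as the limit the log2 ratio was 3.88 instead of 1.37. Cells with at least 2 Gpihbp1 UMI that passed the other limits also carried Aplnr outside the members. They had 146 CPM at 2 Car4 UMI, above the members, and 40.4 CPM at 17 or more. Apln, its ligand, was at 32.6 and 222 CPM, 6.80-fold lower (4.49 to 10.4). Kdr (VEGFR2), the main signalling receptor of VEGF, was at 207 and 826 CPM, 3.99-fold lower (3.33 to 4.79), and its co-receptor Nrp1 at 501 and 1692 CPM, 3.38-fold lower (2.99 to 3.81). Flt1 (VEGFR1), which binds VEGF with little signalling, was higher at 615 and 304 CPM (2.03-fold, 1.62 to 2.56), but its interval reached below 2-fold. The ligand Vegfa was itself at 115 CPM in the members and 17.1 in Car4 cells (6.74-fold, 2.82 to 21.1). In all, 9 genes of this list entered, of which 5 were higher, 3 lower and 1 between, with a median log2 ratio of 1.02.

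The endothelin genes were likewise split. Edn1, the ligand, was at 433 CPM in the members and 40.9 in Car4 cells, a ratio of 10.6 (6.01 to 20.6), with a UMI in 120 of 178 members. Its log2 ratio of 3.40 was 1.13 with the rule applied after thinning and 0.92 against all other gated cells. The receptor gene Ednrb (chromosome 14, 103814625 to 103844402, minus strand) was at 13.7 and 781 CPM, 56.9-fold lower (34.3 to 101), and 10 of 178 members had a UMI, compared with 45 of 50 Car4 cells. At 13.7 CPM the members' Ednrb was above the 6.57 CPM of the AT2 class, and the part of free RNA in it was not tested. The natriuretic peptide receptors Npr3 (134 and 6.82 CPM, 19.6-fold, 5.34 to 163) and Npr1 (98.7 and 47.8 CPM, 2.07-fold, 1.18 to 3.90) were higher. Npr3 rests on only 2 UMI in the Car4 cells, hence the wide interval. Ptgs1, a cyclooxygenase of prostanoid synthesis, was at 96.1 and 27.3 CPM (3.52-fold, 1.73 to 8.36). Of 10 vascular tone genes that entered, 4 were higher and 1 lower, with a median log2 ratio of 0.58.

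Notch and arterial genes were higher in the members. Hey1, a target of Notch signalling, was at 215 CPM in the members and 17.1 in Car4 cells (12.6-fold, 5.32 to 39.1), a log2 ratio of 3.65 that was 0.99 with the rule applied after thinning and 0.83 against all other gated cells. The receptors Notch1 (190 and 85.3 CPM, 2.22-fold) and Notch4 (118 and 44.3 CPM, 2.67-fold), the ligand Dll4 (94.4 and 40.9 CPM, 2.31-fold) and the feedback gene Nrarp (110 and 17.1 CPM, 6.44-fold) were also higher, which makes 5 of the 6 Notch genes that entered, none lower, and a median log2 ratio of 1.31. Of 11 arterial genes 6 entered, of which 5 were higher and 0 lower, with a median of 2.05. Hey1 and Dll4 are on both lists, so the 2 counts are not separate. Sox17, an arterial transcription factor, was at 407 and 71.6 CPM (5.68-fold, 3.67 to 9.26). The ephrin Efnb2 was at 227 and 44.3 CPM (5.11-fold, 2.94 to 9.72). The connexin Gja4 was at 320 and 95.5 CPM (3.35-fold, 2.28 to 5.11). In 90 of 178 members at least 2 UMI of Gja5, Bmx and Gja4 were found, against 5 of 50 Car4 cells and 53 of 131 large vessel cells.

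Among the endothelial transcription factors, 19 entered, 6 were higher, 3 lower and 10 between, with a median log2 ratio of 0.65. Foxo1, a factor of endothelial quiescence, was at 85.8 CPM in the members and 17.1 in Car4 cells (5.03-fold, 2.09 to 15.8), Foxp1 at 635 and 181 (3.51-fold, 2.66 to 4.73), Erg at 138 and 44.3 (3.12-fold, 1.77 to 5.98), and Sox7 at 160 and 58.0 (2.75-fold, 1.67 to 4.83). Epas1, which encodes HIF-2 alpha, was the most abundant of the higher ones, at 1938 and 890 CPM (2.18-fold, 1.91 to 2.48). The 3 lower factors were T-box and homeobox genes: Tbx2 at 18.9 and 269.5 CPM (14.3-fold lower, 8.81 to 24.1), Tbx3 at 142 and 559 (3.93-fold lower, 3.15 to 4.90) and Meox1 at 32.6 and 259 (7.95-fold lower, 5.32 to 12.1). Klf2, the factor of laminar flow, was near equal at 2272 and 2593 CPM, and so was Foxf1 at 768 and 986 CPM.

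Genes of MHC class II antigen presentation were all higher in the members than in Car4 cells: 6 of the 6 genes that entered, with a median log2 ratio of 1.47. Cd74, the invariant chain, was at 5074 CPM (4945 to 5205) in the members, 1654 in Car4 cells and 3001 in large vessel cells, a ratio of 3.07 (2.79 to 3.37) to the Car4 cells. H2-Aa was at 1169.8 and 429.8 CPM (2.72-fold, 2.27 to 3.29), H2-Ab1 at 1449 and 515 (2.81-fold, 2.38 to 3.34), H2-Eb1 at 871 and 317 (2.75-fold, 2.22 to 3.43), and the peptide exchange gene H2-DMb1 at 276 and 81.9 (3.38-fold, 2.23 to 5.35). All 178 members had a UMI of H2-Aa, H2-Ab1 or H2-Eb1 and 174 had at least 3, compared with 37 and 20 of the 50 Car4 cells. AT2 cells carry the same transcripts, with 9240 CPM of Cd74. The AT2 transcript Sftpc was at 3162.5 CPM in the members and 5513 CPM in Car4 cells. The part of free RNA in the ratios of the class II genes was not tested. MHC class I genes did not follow: of 8 that entered, 0 were higher and 0 lower, with a median log2 ratio of -0.30, and B2m was at 7897 and 10879 CPM.

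Of 14 interferon-stimulated genes that entered, 4 were higher and 0 lower, with a median log2 ratio of 0.29. These were the guanylate-binding proteins Gbp2 (362 and 140 CPM, 2.59-fold, 1.88 to 3.66), Gbp3 (106 and 13.6 CPM, 7.80-fold, 2.97 to 29.1) and Gbp4 (179 and 71.6 CPM, 2.49-fold, 1.59 to 4.11), and the membrane protein gene Ifitm3 (4180 and 1590 CPM, 2.63-fold, 2.39 to 2.90). Leukocyte adhesion genes went both ways among 9 that entered. Icam1, a ligand of leukocyte integrins, was at 93.5 and 542 CPM (5.80-fold lower, 4.52 to 7.47), Icam2 at 947 and 3166 (3.34-fold lower, 3.06 to 3.65) and Cd34 at 303 and 1136 (3.75-fold lower, 3.22 to 4.37). The junctional adhesion gene Jam2 (87.5 and 20.5 CPM, 4.28-fold, 1.90 to 11.9) and Mcam (338 and 106 CPM, 3.20-fold, 2.22 to 4.77) were higher.

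Matrix genes of the basement membrane were higher in the members for 3 of the 4 genes that entered, with a median log2 ratio of 1.66. They were the collagen Col4a1 (510 and 198 CPM, 2.58-fold, 1.97 to 3.44), the collagen-binding Sparc (1528 and 396 CPM, 3.86-fold, 3.20 to 4.70) and its relative Sparcl1 (454 and 30.7 CPM, 14.8-fold, 7.73 to 32.5). The log2 ratio of Sparcl1, 3.89, was 1.33 with the rule applied after thinning and 1.20 against all other gated cells. In lipid handling 7 genes entered, Gpihbp1 and Lpl were higher, and Plin2, a coat protein of lipid droplets, was lower at 67.8 and 147 CPM (2.16-fold lower, 1.46 to 3.18). The fatty acid transporter Cd36 was at 1420 CPM in the members and 1876 in Car4 cells, a ratio of 0.757 (0.687 to 0.835). Besides Plvap, 1 of the other 8 caveolar genes was higher, namely Ptrf (cavin-1), at 578 and 273 CPM (2.12-fold, 1.68 to 2.70). Pan-endothelial genes were mostly between the limits (9 of 12), with Cldn5, the tight junction claudin, at 3617 and 7874 CPM (2.18-fold lower, 2.07 to 2.29). Of 13 immediate early and stress genes that entered, 0 were higher and 0 lower.

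The ranking by ratio, with the genes of the rule left out, began with genes that 1 or 2 cells decide. Ccl21a and Ccl4 led the higher genes but came almost wholly from 3 members, which are described further on. The next were Npr3, Sparcl1, Tmem252 (608 and 44.4 CPM, 13.7-fold, 7.96 to 25.9, with 10 of its 13 UMI in Car4 cells from 1 cell), Hey1, the phosphodiesterase Pde3a (117 and 10.2 CPM, 11.4-fold, 3.82 to 56.0), Mcf2l (154 and 13.6 CPM, 11.3-fold, 4.35 to 42.0), the ceramidase Acer2 (526 and 47.8 CPM, 11-fold, 6.51 to 20.3) and Edn1. Lyve1, a hyaluronan receptor best known from lymphatic vessels, was at 665 CPM in the members, 68.2 in Car4 cells (9.75-fold, 6.27 to 16.1) and 1282 in large vessel cells. It had a UMI in 147 of 178 members, so it was spread over most of them, unlike the defining lymphatic gene Prox1 with 8 UMI in 2 members. The log2 ratio of Lyve1, 3.29, was 1.19 with the rule applied after thinning and 0.49 against all other gated cells.

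At the other end stood Fibin, an aerocyte gene, at 13.7 and 1092 CPM (79.5-fold lower, 48.2 to 141). The sulfotransferase gene Chst1 was at 7.72 and 351 CPM (45.5-fold lower, 23.1 to 102), Pcolce2 at 16.3 and 498 (30.5-fold lower, 18.9 to 52.2) and Enho at 21.5 and 372 (17.3-fold lower, 11.1 to 27.9). The most abundant of the strongly lower genes were Emp2, a tetraspan membrane protein gene (418 and 5131 CPM, 12.3-fold lower, 11.1 to 13.6), and Igfbp7 (1099 and 8992 CPM, 8.18-fold lower, 7.65 to 8.75). S100a8 also ranked here, at 4.29 and 327 CPM, but 1 Car4 cell held nearly all of its UMI there (94 of 96). The comparison rests on 50 Car4 cells, and with the 242 cells that had at least 9 Car4 UMI in their place, whatever their Gpihbp1, 89 genes instead of 273 were higher. The mitochondrial share was also higher in the members, with medians of 3.42% and 1.93% per cell, and its part in the ratios was not tested.

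Because most endothelial cells with Car4 also had Gpihbp1, the levels were followed over steps of Car4 UMI among all cells with at least 2 Gpihbp1 UMI that passed the other limits. The steps were 0, 1, 2, 3 to 4, 5 to 8, 9 to 16 and 17 or more Car4 UMI, with 103, 75, 42, 49, 52, 83 and 113 cells, and were set after the data had been seen. The members are the steps at 0 and 1. Gpihbp1 went from 1804 CPM at 0 to 1410 at 5 to 8 and 1086 at 17 or more Car4 UMI, and Plvap from 1294 to 819 and 607 CPM. All of these cells were chosen to have at least 2 Gpihbp1 UMI, which limits how low Gpihbp1 can go. Ednrb was at 15.1 CPM at 0, 12 at 1, 29.9 at 2, 53.4 at 3 to 4, 241 at 5 to 8, 370 at 9 to 16 and 565 at 17 or more, and Fibin at 10.5 CPM at 0 and 903 at 17 or more. Kdr was flat over the members (205 and 210 CPM) and then higher at each step up to 912 CPM. In this library Ednrb, Fibin and Kdr were thus lowest in the members and little different between 0 and 1 Car4 UMI. In the CD45-positive library they differed within the members, with Ednrb at 12.1 CPM at 0 and 43.6 at 1, Fibin at 12.1 and 44.9, and Kdr at 150 and 233.

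Some genes were graded within the members themselves. Cd74 was at 5684.5 CPM (5505 to 5869) in members with 0 Car4 UMI and 4264.5 (4086 to 4449) in those with 1, and at 1959 CPM in the cells with 17 or more. H2-Ab1 was at 1622 and 1219 CPM in the same members and at 675 CPM at the last step. Emp2 was at 304 and 569 CPM in the members and 4005 at the last step, and Cyp4b1 at 482, 690 and 2907 CPM. Cd93 was highest in the middle, with 1132 CPM at 0, 1412 at 3 to 4 and 696 at 17 or more. Igfbp7 had a course of its own: 1501 CPM at 0, 567 at 1, 448 at 2, 723 at 3 to 4 and 6047 at 17 or more. Its level in these members came mainly from cells without Car4. A few cells weigh on these values, since 952 of the 1281 Igfbp7 UMI of the members came from 18 cells, of which 5 had a Car4 UMI. The CD45-positive library had no such dip, with 335 CPM at 0, 384 at 1, 688 at 2 and 1440 at 3 to 4. The median depth differed over the steps, from 5724 UMI at 0 to 7391 UMI at 17 or more, and a cell's number of Car4 UMI depends on its depth.

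**Figure D3:**
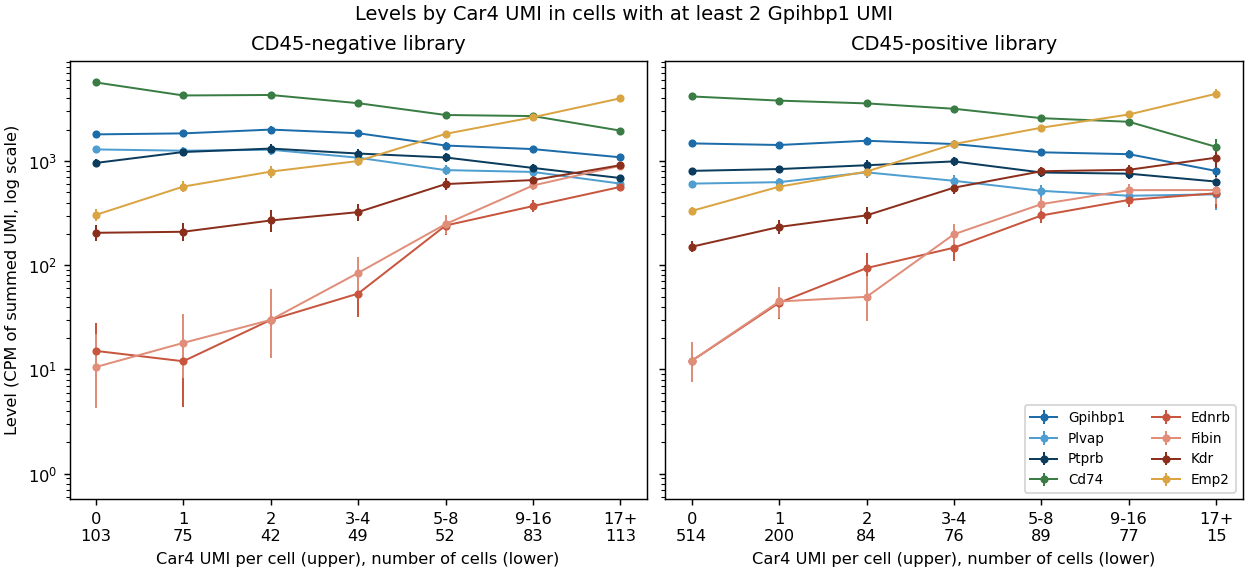
Level in CPM (log axis) of 8 genes by the number of Car4 UMI per cell, among cells with at least 2 Gpihbp1 UMI that passed the other limits, in both libraries; bars give exact Poisson 95% intervals. The members are the steps at 0 and 1, where Ednrb lies at 15.1 and 12 CPM in the CD45-negative library, and 565 CPM is reached at 17 or more.

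The comparison with the 131 large vessel cells gave fewer differences. Of 3454 genes that entered, 53 (1.53%) were at least 2-fold higher and 64 (1.85%) at least 2-fold lower in the members, with a median log2 ratio of 0.06. Of the venous and large vessel list 10 genes entered and 9 were lower. Vwf, Slc6a2 and Cytl1 of these were used by the rule. The 6 others were Vcam1, an adhesion molecule of inflamed and venous endothelium (18.9 and 376 CPM, 19.9-fold lower, 13.0 to 32.2), Bst1 (12 and 173 CPM, 14.4-fold lower, 8.32 to 26.8), Amigo2 (15.4 and 196 CPM, 12.7-fold lower, 7.83 to 21.9), Car8 (14.6 and 135 CPM, 9.26-fold lower, 5.57 to 16.4), the protease Prss23 (164 and 1240 CPM, 7.56-fold lower, 6.49 to 8.86) and Nr2f2, which encodes the venous factor COUP-TFII (24.0 and 133 CPM, 5.54-fold lower, 3.66 to 8.66).

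Several matrix genes were low in the members by the same comparison. Bgn, the proteoglycan biglycan, was at 31.8 CPM in the members and 399 in large vessel cells (12.6-fold lower, 8.96 to 18.1), Mgp at 92.7 and 712 (7.68-fold lower, 6.26 to 9.50) and Ltbp4 at 51.5 and 299 (5.81-fold lower, 4.39 to 7.81). The smooth muscle genes Acta2 (2.57 and 127 CPM, 49.3-fold lower) and Tagln (9.44 and 233 CPM, 24.7-fold lower) were also among the lowest. The smooth muscle list summed to 33.5 CPM in the members and 385 in large vessel cells, where the median cell was at 0 and the highest at 8448 CPM. The part of smooth muscle RNA in the large vessel cells was not tested. Vegfc, a lymphatic growth factor, was lower in the members at 44.6 and 196 CPM (4.4-fold lower, 3.22 to 6.10).

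Of the capillary list 14 genes entered, 6 were higher in the members than in large vessel cells and 0 lower, with a median log2 ratio of 0.96. Aplnr was at 88.4 and 22.9 CPM (3.87-fold, 2.42 to 6.44), the sodium channel gene Scn7a at 428 and 147 (2.92-fold, 2.42 to 3.55), the lectin receptor Clec1a at 701 and 270 (2.59-fold, 2.25 to 2.99), Adgrl3 at 112 and 46.8 (2.40-fold, 1.70 to 3.45), Lpl at 360 and 169 (2.13-fold, 1.77 to 2.57) and Hilpda, a regulator of lipid droplets, at 1116.5 and 549 (2.03-fold, 1.84 to 2.26). The last 3 intervals reach below 2-fold. Kit was at 154 and 79.0 CPM, a ratio of 1.96 (1.49 to 2.59). In Car4 cells Clec1a was at 890 and Scn7a at 372 CPM, also above their large vessel levels, while Hilpda was at 699 CPM.

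Igfbp7 was 3.65-fold higher in the members than in large vessel cells (3.21 to 4.16). Of its 1281 UMI, 952 came from 18 members, and the other 160 members were at 313 CPM, near the 301 CPM of large vessel cells. The basement membrane genes Col4a1 (2.05-fold), Sparc (2.25-fold) and Sparcl1 (2.62-fold) were higher too. The same 18 members add to these ratios. Col4a1 was at 1258 CPM in them and 428 in the other 160 members, Sparc at 3406 and 1323, and Sparcl1 at 1197 and 373. Sox17 was 2.57-fold higher (2.14 to 3.11). Of the 6 arterial genes that entered, it was the only 1 higher, Mgp was lower, as given above, and 4 lay between. The MHC class II genes were 0 higher and 0 lower of 6, with a median log2 ratio of 0.61, and Cd74 had a ratio of 1.69 (1.62 to 1.77). Gbp2 (2.29-fold, 1.90 to 2.78) and Gbp3 (2.28-fold, 1.61 to 3.28) were the interferon-stimulated genes past 2-fold, of 15 that entered. Of the 7 Notch genes 0 were higher and 0 lower, so the Notch genes that parted the members from Car4 cells did not part them from large vessel cells by this size rule. Among 15 immediate early and stress genes Fos (2.10-fold lower, 1.73 to 2.55) and Hspa1a (2.32-fold lower, 1.93 to 2.79) were lower.

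The same rule found 714 cells among the 2172 endothelial cells of the CD45-positive library (32.9%, 30.9 to 34.9%). They were shallower, with a median of 3236.5 UMI, and carried leukocyte transcripts: the 7 leukocyte markers summed to 2720 CPM, and Ptprc had a UMI in 251 of 714 cells (35.2%). Fewer UMI per cell make limits of at most 1 or 2 UMI easier to pass, so the shares of the libraries are not compared. All 3 of Plvap, Ptprb and Cd93 were found in 428 of these 714 cells and none in 11. Against the 190 Car4 cells of that library, 4387 genes entered, 168 (3.83%) were higher and 87 (1.98%) lower.

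The direction of single genes was mostly the same in both libraries, though the size was often smaller. Of the 268 genes that were higher in the CD45-negative library and could be compared in both, 250 were above 1 in the CD45-positive library and 95 (35.4%) were past 2-fold there, against 4.37% of all genes compared. The 95 genes were 84.1% of the 113 that passed there. Of the 145 lower genes 140 were below 1 and 61 (42.1%) past 2-fold, which were 89.7% of 68. The same 8 capillary genes beyond the markers were higher in both libraries. Plvap had a ratio of 4.91 (3.96 to 6.17) in the CD45-positive library, Kit 4.86 (2.99 to 8.45), Lpl 4.14 (3.06 to 5.73) and Aplnr 3.90 (1.99 to 8.71). Ednrb was 18.4-fold lower (13.8 to 24.9), Kdr 4.08-fold lower (3.59 to 4.64) and Apln 7.45-fold lower (5.21 to 10.8). Against Car4 cells as chosen here, the split of ligand and receptor in the apelin system was thus found in both. Over the steps of Car4 UMI among cells with at least 2 Gpihbp1 UMI, Aplnr was nearly flat in the CD45-positive library. It was at 52.2 CPM at 0 and 47.9 at 17 or more Car4 UMI, while Apln was at 16.5 and 276 CPM.

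The members of the CD45-positive library were also compared with its 151 large vessel cells. Of 4374 genes that entered, 35 (0.8%) were higher and 41 (0.937%) lower. Of the 52 genes that were higher in the CD45-negative library and could be compared in both, 49 were above 1 and 8 (15.4%) past 2-fold. Of the 40 lower genes all 40 were below 1 and 29 (72.5%) past 2-fold, among them Amigo2 (21.7-fold lower, 12.6 to 39.6), Prss23 (9.32-fold lower, 7.79 to 11.2) and Nr2f2 (8.66-fold lower, 5.73 to 13.3). Of the capillary list 2 genes were past 2-fold there instead of 6, Aplnr (2.76-fold, 1.53 to 5.47) and Clec1a (2.07-fold, 1.73 to 2.50). Of the basement membrane and interferon-stimulated lists 0 genes were higher. Igfbp7 had a ratio of 1.97 (1.62 to 2.40) and Sox17 of 1.21 (0.962 to 1.54).

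Other groups had fewer genes past 2-fold there. Of the MHC class II genes 1 of 6 was past 2-fold in the CD45-positive library (H2-DMb1, 2.39-fold, 1.75 to 3.34), and Cd74 was at 4060 CPM in the members and 2693 in Car4 cells, a ratio of 1.51 (1.44 to 1.58). Among the 59 members and 13 Car4 cells of that library with no UMI of the 7 leukocyte markers, the Cd74 ratio was 5.48 (3.76 to 8.31), Plvap 5.09 (2.41 to 12.8) and Ednrb 42.0-fold lower. Over all cells of that library, 14 interferon-stimulated genes entered against Car4 cells and 2 were higher (Gbp7 and Ifitm3). Gbp2, Gbp3 and Gbp4 were not among those. Of 6 arterial genes that entered, 3 were higher (Gja4, Hey1 and Sox17) and 0 lower. Of 9 Notch genes that entered, 2 were higher (Hey1 and Dll1) and 1 lower (Notch2). Hey1 had a ratio of 6.72 (3.59 to 14.2) and Notch1 of 1.26 (0.970 to 1.65). Of the 6 transcription factors that were higher in the CD45-negative library, Sox7 (2.45-fold) and Sox17 (4.39-fold) remained past 2-fold, while Erg was at 1.35, Foxo1 at 1.39, Foxp1 at 1.94 and Epas1 at 1.59 times. The haemoglobin genes turned over between the libraries, and their values are given in the closing section.

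**Figure D4:**
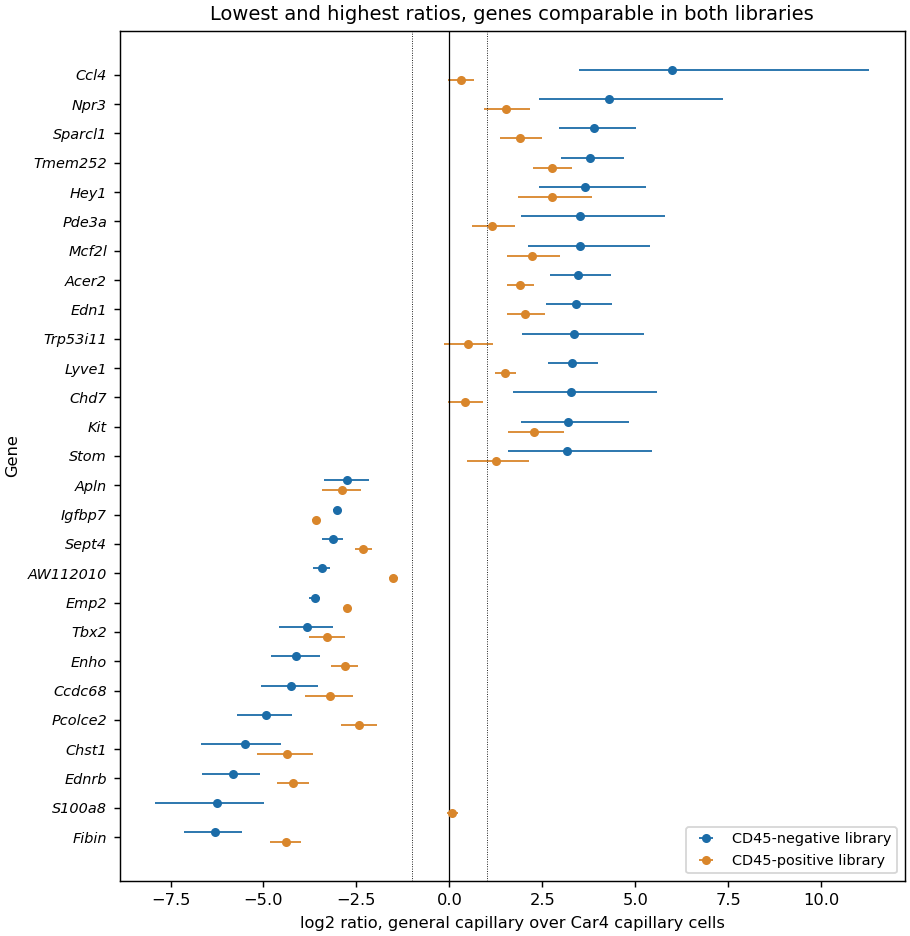
Log2 ratio of members over Car4 cells for those of the 15 genes with the highest and the 15 with the lowest ratio in the CD45-negative library that have a ratio with an interval in the CD45-positive library, shown beside it; bars give exact 95% intervals and dotted lines mark 2-fold. The aerocyte genes Fibin, Ednrb and Chst1 are low in both.

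The members also varied among themselves. For the 2083 genes with at least 100 UMI in the members, the variance left after scaling for depth was set against Poisson counting, for which it would be 1. The median over genes was 1.14, and 222 genes were above 2. The 15 most variable genes were Ccl21a, Ccl4, Hbb-bs, Hba-a1, Ccl3, Hba-a2, Igfbp7, Malat1, Actb, Hbb-bt, Cd74, Mgp, Gbp2, mt-Atp6 and mt-Co3, and 13 of the 15 were also among the top 15 after thinning each cell to 2000 UMI. Malat1, a nuclear RNA, was at 1159 to 83584 CPM per cell with a median of 29699, and Actb at 366 to 22732 with a median of 2630. Cd74 ranged from 0 to 137 UMI per member with a median of 27, and its residual variance was 19.4.

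A few members accounted for the genes at the top of that ranking. Ccl21a, the chemokine of lymphatic endothelium, had 792 and 236 UMI in 2 members, 99.5% of its UMI in the set. These 2 cells also had 34 and 19 UMI of Mmrn1, 5 and 3 of Prox1 and 8 and 4 of Reln, all lymphatic genes, while no other member had a UMI of Prox1 or Reln. They had 15 and 3 UMI of Gpihbp1 and 1 and 0 of Ly6a. Ccl21a has near-identical gene copies, so its count is uncertain. The markers therefore go against the label for these 2 cells.

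Another member held 245 of the 250 Ccl4 UMI and 164 of the 167 Ccl3 UMI. It had 50 UMI of the basophil protease Mcpt8, 20 of Il4, 46 of Osm and 36 of Il6, and no UMI of Ptprc, beside 6 UMI each of Gpihbp1 and Plvap. Mcpt8 and Il4 had no UMI in any other member. A further 5 members had at least 10 Hba-a1 UMI, from 44 to 336, and held 80.6% of all Hba-a1 UMI of the set. These 5 cells had 4 to 18 UMI of Gpihbp1 and 6 to 12 of Plvap. Whether the 8 cells are doublets was not tested. Leaving all 8 out turned the log2 ratio of Hba-a1 to Car4 cells to -0.43 and that of Ccl21a to large vessel cells to -0.89.

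Igfbp7, which encodes a secreted binding protein of insulin-like growth factors and collagen IV, was not decided by 1 or 2 cells. It was at 0 UMI in 46 members and reached 19736 CPM in the highest, and its residual variance was 55.7. At least 2000 CPM were found in 18 of 178 members (10.1%, 6.10 to 15.5%), and 6 members lay near that limit, between 1500 and 2500 CPM. The limit was set after the data had been seen, so the values below are a description with no test. The 18 cells and the other members had similar depth, with medians of 5592.5 and 5764.5 UMI, and similar Gpihbp1, at 1782 and 1826 CPM.

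Several matrix and angiogenic genes were higher in the members with high Igfbp7. Over the 6546 genes with at least 20 UMI in the members, Igfbp7 left out, 328 (5.01%) were at least 2-fold higher in these cells and 1302 (19.9%) at least 2-fold lower. Sparc was at 3406 CPM in these and 1323 in the other members (2.57-fold, 2.30 to 2.88), Col4a1 at 1258 and 428 (2.94-fold, 2.42 to 3.55) and Sparcl1 at 1197 and 373 (3.21-fold, 2.62 to 3.91). Aplnr was at 253 and 70.4 CPM (3.60-fold, 2.26 to 5.59), Kdr at 428 and 183 (2.34-fold, 1.68 to 3.22), the cell cycle regulator Rgcc at 926 and 146 (6.36-fold, 4.92 to 8.20) and Vwa1, a matrix protein gene, at 358 and 26.6 (13.4-fold, 8.11 to 22.6). Of the tip cell and tumour endothelium list, 9 genes with at least 20 UMI were counted and 6 were at least 2-fold higher. For Insr, 1 of the 6, with 5 UMI in the 18 cells, the interval ran from 0.673 to 6.30. The other genes counted lay between the limits: Dll4 at a ratio of 1.12 (0.561 to 2.05), Mcam at 1.07 (0.752 to 1.48) and Pdgfb at 0.796 (0.436 to 1.35). Among the 6, Igfbp3 had 34 UMI in 3 of the 18 cells and 0 in the other 160 members. Esm1, the tip cell proteoglycan endocan, had 15 UMI in 3 of the 18 cells, and Apln had 21 UMI in 3 of them. Of 10 basement membrane genes counted, 6 were higher and 0 lower.

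Lpl, Hpgd, Tmem100 and Ptprb were lower in those cells, while Plvap was 1.41-fold higher (1.21 to 1.64). Lpl was at 34.9 CPM with high Igfbp7 and 396 in the other members (11.3-fold lower, 4.39 to 41.8), the prostaglandin dehydrogenase gene Hpgd at 419 and 1816 (4.33-fold lower, 3.25 to 5.90), Tmem100 at 672 and 2475 (3.68-fold lower, 2.93 to 4.68) and Ptprb at 524 and 1132 (2.16-fold lower, 1.67 to 2.85). Ednrb and Fibin had 5 and 2 UMI in the 18 cells, at 43.7 and 17.5 CPM, so they were far below the 781 and 1092 CPM of the Car4 cells.

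In the CD45-positive library 17 of 714 cells (2.38%) passed the same limit on Igfbp7. Sparc was at 1985 and 742 CPM there (2.68-fold, 2.15 to 3.29), Sparcl1 at 866 and 143 (6.06-fold, 4.28 to 8.38), Rgcc at 655 and 112 (5.84-fold, 3.89 to 8.47), Aplnr at 190 and 47.8 (3.98-fold, 1.78 to 7.81) and Kdr at 401 and 172 (2.34-fold, 1.39 to 3.70). Hpgd was at 317 and 810 CPM (2.56-fold lower, 1.55 to 4.58) and Lpl at 106 and 271 (2.56-fold lower, 1.09 to 7.92). Sparc, Sparcl1, Rgcc, Aplnr, Kdr, Hpgd and Lpl thus lay on the same side in both libraries. Tmem100 was 1.33-fold lower in this library (0.987 to 1.84) and Ptprb 1.49-fold lower (1.02 to 2.29). Emp2 turned over, from a ratio of 0.624 in the CD45-negative library to 2.02, and so did Cyp4b1 (0.478 to 2.37) and Prx (0.402 to 1.90). In this library 16 cells lay between 1500 and 2500 CPM of Igfbp7, nearly as many as the 17 past the limit. Ednrb (148 and 19.4 CPM) and Fibin (169 and 19.4 CPM) were higher with high Igfbp7 in this library. Over 8696 genes, 1150 (13.2%) were at least 2-fold higher and 2839 (32.6%) at least 2-fold lower with high Igfbp7 in this library, where the 17 cells held 47348 UMI in all. Of the tip cell list 1 gene was higher and 2 lower of 8, Igfbp3 having 11 UMI in 2 of the 17 cells, and Cxcl9, with 47 UMI in 5 of the 18 cells of the CD45-negative library, had none in the 17.

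**Figure D5:**
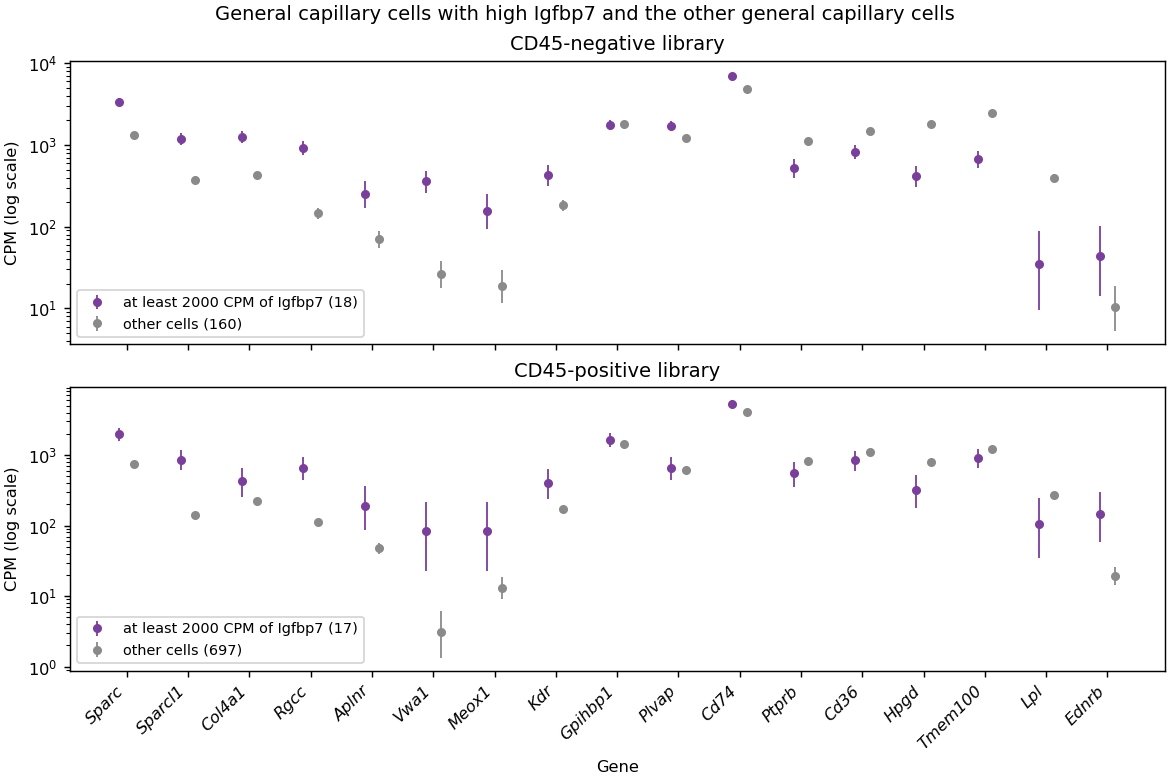
Level in CPM (log axis) of 17 genes in members with at least 2000 CPM of Igfbp7 and in the other members, for the CD45-negative (18 and 160 cells) and the CD45-positive library (17 and 697 cells); bars give exact Poisson 95% intervals. Sparc, Sparcl1, Rgcc and Aplnr are higher and Lpl and Hpgd lower with high Igfbp7 in both libraries, while Gpihbp1 is near equal.

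Few members carried transcripts of dividing cells. At least 2 UMI of Mki67 and Top2a summed were found in 11 of 178 members (6.18%, 3.12 to 10.8%), in 0 of 50 Car4 cells, which allows a share of up to 6.0% by a limit of 3 counts and 7.11% by the exact Clopper-Pearson interval, and in 6 of 131 large vessel cells (4.58%, 1.70 to 9.70%). In the shallower CD45-positive library the count was 10 of 714 (1.40%). The intervals of the members and of both other sets in the CD45-negative library overlap. They cover counting error in cells of 1 library, and a difference between the sets was not tested. Stmn1, a microtubule gene of proliferating cells, was at 658 CPM in the members and 215 in Car4 cells (3.06-fold, 2.37 to 4.03), and its level in large vessel cells was 360 CPM. Of 17 cell cycle genes only 2 entered against Car4 cells, and Stmn1 was the 1 past 2-fold. In the CD45-positive library 3 of them entered and 0 were higher.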

How the data were processed

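Single-cell RNA was measured in 2 libraries from mouse lung adenocarcinoma. The authors deposited raw counts, whole UMI per gene and cell (17790 genes, 15389 cells), made with Cell Ranger 1.1.0 on mm10 per the submitters' processing notes and the series design text, and a table with each cell's library and class. The sources used here do not say how the classes were assigned. The libraries held 40873786 (CD45-negative) and 47477407 UMI (CD45-positive).

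From these counts, cells were chosen by the UMI limits given above. A level is the CPM of the UMI summed over a set, with an exact Poisson interval, and shares have exact Clopper-Pearson intervals and ratios exact conditional-binomial intervals, all at 95%. With 1 library per group no p-value was made. UMI were collapsed, so intervals cover counting error only, not animals or dissociation. Ratios used genes with at least 100 UMI over both sets and a 2-fold size rule. The 15 highest and 15 lowest ratios with at least 50 CPM in the higher set were named, besides the genes of the rule, the marker genes, the 15 most abundant and most variable genes and up to 8 genes per list. A group with 0 UMI was bounded at 3 counts. Each cell was in addition thinned to 2000 UMI, which no cell fell short of (0 left out). The members, the rule and the 37 gene lists (387 of 388 genes in the table) were chosen with earlier results of these data known. Alternatives were other limits on Gpihbp1, thinning, other scalings, other UMI minimums and other comparison cells. The scripts were tested on simulated data. Positions are from GENCODE on GRCm38, the assembly that mm10 names. Tools were scipy 1.17.1, numpy 2.4.6, matplotlib 3.10.9 and pandas 2.3.3 under Python 3.11.15.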

Additional observations from a re-analysis of the deposited data

Results flagged for a closer look

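The haemoglobin genes of the members lay on opposite sides of the Car4 cells in the 2 libraries, and this difference was not tested. For Hba-a1 the ratio of members over Car4 cells was 3.72 among CD45-negative and 0.303 among CD45-positive cells, for Hba-a2 3.33 and 0.275, and for Hbb-bs 2.65 and 0.264. A few cells held a large part of these UMI: 5 members and 0 Car4 cells had at least 10 Hba-a1 UMI in the CD45-negative library, and 5 members and 3 Car4 cells in the CD45-positive library, where the 3 cells held 81.4% of the Hba-a1 UMI of the Car4 cells. Without these cells the ratio of Hba-a1 was 0.743 (0.582 to 0.957) and 0.922 (0.666 to 1.30), that of Hba-a2 0.714 (0.532 to 0.968) and 1.33 (0.839 to 2.21), and that of Hbb-bs 0.952 (0.806 to 1.13) and 0.934 (0.745 to 1.18) in the CD45-negative and CD45-positive library.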

How the results depend on the processing

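The counts of genes past 2-fold depended on the UMI minimum and on which cells were compared. Against Car4 cells 273 genes were higher, and this became 148 with at least 5 Gpihbp1 UMI, 104 with the rule applied after thinning, 1125 with a minimum of 20 UMI, 41 with 500, 33 against all other gated endothelial cells and 89 against cells with at least 9 Car4 UMI. The 149 lower genes became 531 and 30 with a minimum of 20 and 500 UMI. Against large vessel cells the 53 higher genes became 154 with the rule applied after thinning, 309 and 14 with those minimums, and the 64 lower genes 103, 309 and 13. The 178 members became 373 with the rule after thinning and 417 with no limits but those on Gpihbp1 and Car4. Applying the rule after thinning changed which cells were chosen, while the ratios still used all UMI of those cells. In the CD45-positive library 168 higher and 87 lower genes became 26 and 19 without cells that had a leukocyte UMI (59 and 13 cells, 344 genes). Fewer or more cells and genes entered in each of these. The set with at least 9 Car4 UMI and the removal of 8 members were chosen after seeing the data. Of 401 log2 ratios of single genes under the alternatives (39 results), 299 stayed within the counting interval of the reported ratio, 100 lay outside it and 2 reversed, Hba-a1 against Car4 cells to -0.43 and Ccl21a against large vessel cells to -0.89 without the 8 members that stand apart, and Ccl21a against Car4 cells then had 0.39. Leaving out cells with over 5 Sftpc UMI left 0 members, since the lowest had 6, and was not run. No paired analysis was possible because each group has 1 library. Depth and the 50 Car4 cells limit the genes that can be compared.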
